A study of Mus musculus with 6 samples.

Results

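T cell and monocyte attracting chemokines are the secreted proteins by which inflamed tissue draws in activated lymphocytes and monocytes. The 10 genes described here were taken by symbol (Cxcl9, Cxcl10, Cxcl11, Cxcl16, Ccl2, Ccl3, Ccl4, Ccl5, Ccl7 and Ccl12), and all 10 were found among the 55359 gene rows of the count table. Of these, 7 passed the filter on low counts and were among the 11190 genes tested, and 3 (Cxcl9, Cxcl11 and Ccl12) stayed below it. RNA came from myeloid-derived suppressor cells (MDSCs), immature myeloid cells that restrain T cells, grown out of C57BL/6 mouse bone marrow for 4 days in GM-CSF and IL-6 (40 ng/ml each) and enriched with a commercial kit for the polymorphonuclear type (PMN-MDSC). The mtDNA group (3 libraries) was transfected with mitochondrial DNA at 250 ng/ml using a lipid reagent, the blank group (3 libraries) was not given mtDNA, and the treatment lasted 12 h. Whether blank cells saw the reagent is not stated in the labels, and no library received another DNA, so the DNA, its origin and the reagent cannot be told apart. The strain, the cytokines and the sort were common to both groups, and nothing in the labels says that libraries came from separate animals or cultures, so that p-values here speak only of library-to-library spread, whose origin may be technical.

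Chemokines act through G protein-coupled receptors on the cells they attract. Cxcl9, Cxcl10 and Cxcl11 are the ligands of CXCR3, carried by activated T cells and NK cells, and are classical interferon-induced genes. Cxcl16 is made as a membrane-anchored ligand of CXCR6. Ccl2, Ccl7 and Ccl12 are ligands of CCR2, the receptor that brings monocytes out of the bone marrow, and Ccl3 and Ccl5 bind CCR1, carried by monocytes and T cells. Ccl4 is a close relative of Ccl3 and attracts T cells and monocytes. In myeloid cells, transcription of many of these genes is driven by interferon regulatory factors, which bind the interferon-stimulated response element (ISRE), by factors that bind the interferon gamma-activated GAS element, and by NF-kB.

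RefSeq promoter sequences (build GRCm38.p6) matched 4 of the 10 genes. They are shown so that Cxcl10, the gene with the largest change, can be read beside a second CXCR3 ligand, a CCR1 ligand and a CCR2 ligand. The 250 bases upstream of the start of Cxcl10 (chr5:92348890-92349139, minus strand), Cxcl9 (chr5:92328080-92328329, minus strand), Ccl3 (chr11:83649379-83649628, minus strand) and Ccl12 (chr11:82101595-82101844, plus strand) are printed on the strand of the gene, with matches to the searched motifs in capitals.
Cxcl10: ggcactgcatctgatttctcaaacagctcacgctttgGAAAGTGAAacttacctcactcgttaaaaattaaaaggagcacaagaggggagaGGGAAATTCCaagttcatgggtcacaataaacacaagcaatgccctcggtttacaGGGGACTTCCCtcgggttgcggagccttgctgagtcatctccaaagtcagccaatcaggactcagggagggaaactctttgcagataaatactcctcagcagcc
Cxcl9: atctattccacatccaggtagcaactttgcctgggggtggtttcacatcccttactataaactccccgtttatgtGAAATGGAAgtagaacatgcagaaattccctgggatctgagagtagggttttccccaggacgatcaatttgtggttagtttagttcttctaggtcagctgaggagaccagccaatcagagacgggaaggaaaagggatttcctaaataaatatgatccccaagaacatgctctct
Ccl3: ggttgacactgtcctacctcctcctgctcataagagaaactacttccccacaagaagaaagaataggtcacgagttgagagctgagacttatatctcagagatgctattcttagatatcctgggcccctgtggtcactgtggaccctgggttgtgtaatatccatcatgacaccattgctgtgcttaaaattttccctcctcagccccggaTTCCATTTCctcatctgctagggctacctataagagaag
Ccl12: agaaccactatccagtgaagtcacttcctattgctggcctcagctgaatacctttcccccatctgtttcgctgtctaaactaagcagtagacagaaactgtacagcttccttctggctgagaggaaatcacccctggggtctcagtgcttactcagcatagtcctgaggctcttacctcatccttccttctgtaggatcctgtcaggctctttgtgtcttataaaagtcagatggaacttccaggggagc

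The motifs searched, on both strands, were the ISRE core GAAANNGAA, the GAS motif TTCNNNGAA and the NF-kB consensus. Upstream of Cxcl10 the first capitals are an ISRE core match, from -213 to -205 relative to the start, and the other capitals are NF-kB matches, from -159 to -150 and from -104 to -94. The stretch nearer to the start holds 3 overlapping NF-kB matches, 2 on the strand of the gene and 1 on the opposite strand. Cxcl9 had a single ISRE core match, from -175 to -167, and Ccl3 had a single one on the opposite strand, from -39 to -31. Ccl12 had none of these letters in this window, and none of the 4 promoters matched the GAS motif. Among 32851 RefSeq promoters cut to the same length, 7.13% held the ISRE core, 7.02% the GAS motif and 7.25% the NF-kB consensus. A match is a description of the letters and not evidence of binding.

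**Figure D1:**
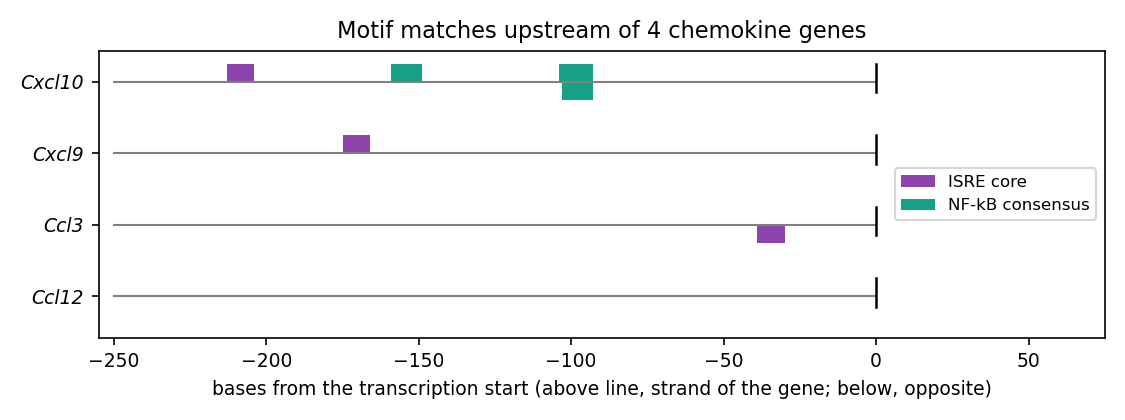
Position of motif matches (horizontal axis, bases from the transcription start; above the line, strand of the gene; below, opposite strand) in the 250 bases upstream of Cxcl10, Cxcl9, Ccl3 and Ccl12. Purple bars are ISRE core matches and green bars NF-kB matches; Cxcl10 has both kinds, Cxcl9 and Ccl3 have an ISRE core match alone and Ccl12 has no match.

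Library totals lay between 4018360 and 4911103 counts, so that 1 read was worth 0.200 to 0.256 CPM (read counts scaled to a common library size after TMM adjustment) and 3 reads 0.601 to 0.767 CPM. The library mtDNA 1 stood apart from the other mtDNA libraries on the second principal component (15.9 against -7.47 and -9.27), which carried 8.97% of the variance, while the first carried 68.1% and separated the groups. Ly6g, the surface marker that defines the polymorphonuclear type, averaged 5.81 ± 1.14 CPM in mtDNA and 4.87 ± 0.954 CPM in blank libraries (SD, n = 3 each), whereas S100a9, abundant in neutrophils, averaged 1920 ± 65.2 CPM in mtDNA and 1819 ± 118 CPM in blank libraries. Among markers of monocytes and macrophages, Csf1r averaged 1552 ± 3.52 CPM in mtDNA and 1424 ± 16 CPM in blank libraries, whereas Cx3cr1 averaged 2.17 ± 1.16 CPM in mtDNA and 2.34 ± 0.65 CPM in blank libraries. Both marker lists thus held abundant and scarce members, and their sums stand with the other markers at the end.

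After mtDNA, 6 of the 7 tested chemokine genes were called higher (edgeR adjusted p under 0.05, Benjamini-Hochberg over all tested genes) and 0 lower. Cxcl10, Ccl7 and Ccl2 rose most, by 35.9-fold, 5.53-fold and 3.57-fold, Ccl4 by 2.06-fold, and Ccl5 and Ccl3 by 1.63-fold and 1.55-fold. Cxcl16 was not called, and the other CXCR3 ligands, Cxcl9 and Cxcl11, were barely counted in either group. Of all genes tested, 17.8% were called, 11.9% higher and 5.98% lower, and 2.51% were called at least 2-fold higher. At least 2-fold higher were 4 of these 7 genes, with Ccl4 near that threshold. It fell below 2-fold with scaling by upper-quartile factors (log2 0.96) or library totals (0.92) and without mtDNA 1 (0.92). The split of 1327 higher and 669 lower genes depended on the scaling: it was 970 and 1504 with upper-quartile factors and 861 and 2356 with library totals. The 7 tested genes had every mtDNA library above every blank library, as did 17.9% of all genes tested. Ccl7 passed the count filter through its mtDNA libraries, so its share in these counts is partly set by the filter. In bulk RNA, fewer cells of a type and less RNA per cell cannot be told apart.

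**Figure D2:**
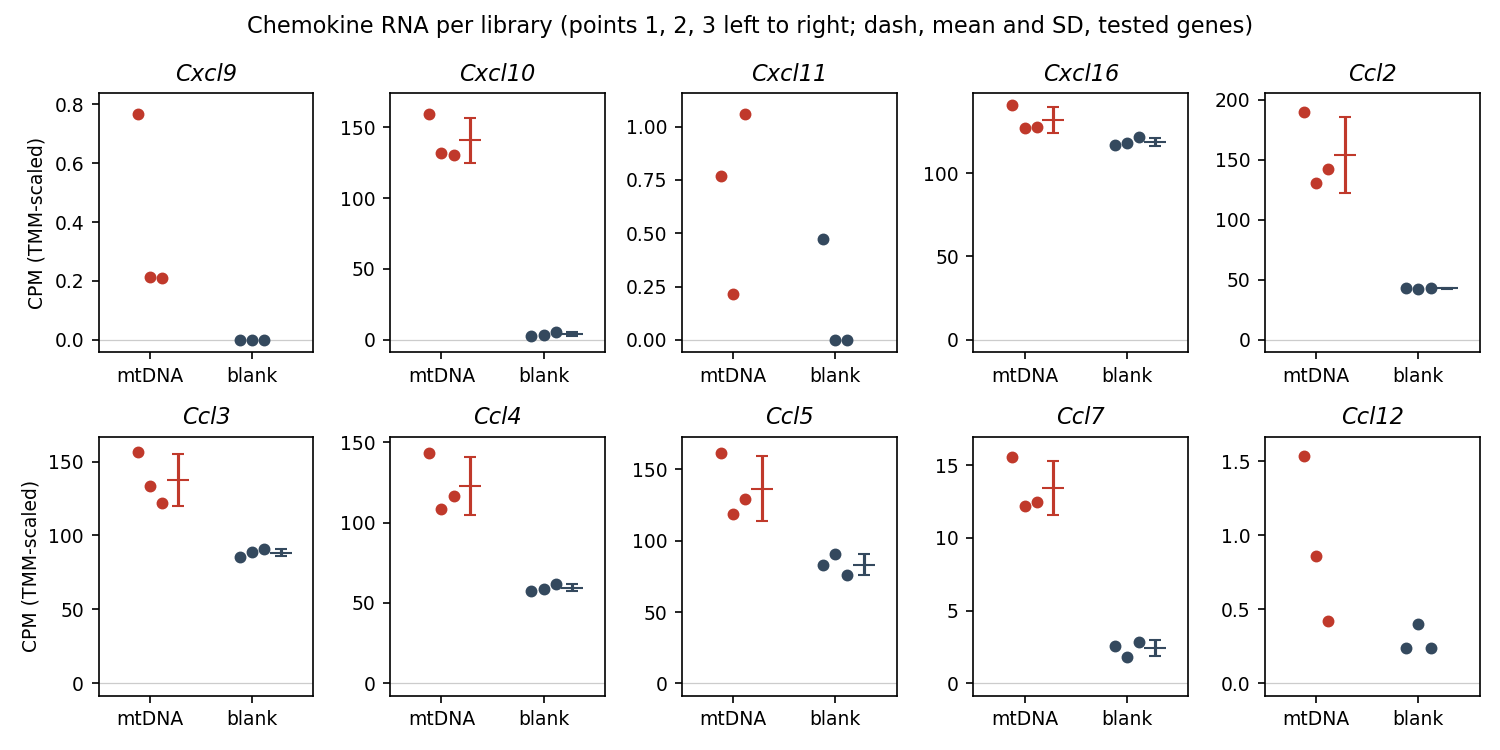
TMM-scaled CPM (vertical axis, from 0, own scale for each gene) of the 10 chemokine genes in the 3 mtDNA (red, left) and 3 blank (dark, right) libraries; dashes and bars are the mean and SD, drawn for the tested genes only. Cxcl10 lies between 131 and 159 CPM in mtDNA libraries and between 3.06 and 5.49 CPM in blank libraries, while Cxcl16 differs little and Cxcl9, Cxcl11 and Ccl12 rest on a few reads.

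Among the CXCR3 ligands, Cxcl10 (ENSMUSG00000034855, chromosome 5) carried nearly all of the reads. It had 159, 132 and 131 CPM in mtDNA 1, 2 and 3, against 3.06, 3.21 and 5.49 CPM in blank 1, 2 and 3. The lowest mtDNA library was far above the highest blank library, and blank 3 was the highest of the blank libraries. The log2 fold change was 5.17 ± 0.15 (SE; edgeR adjusted p = 2.13e-16), which placed Cxcl10 at rank 12 of the tested genes ordered by fold change. Of the read-length windows of its longest transcript, 2.74% are shared with Art3, a gene on the opposite strand that had 2 reads in mtDNA and 0 in blank libraries.

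Cxcl9 (ENSMUSG00000029417), which attracts T cells in interferon gamma responses, had 3, 1 and 1 reads in mtDNA libraries and 0 in each blank library. With so few reads no difference could be detected (edgeR adjusted p = 0.222 without the count filter). Cxcl11 (ENSMUSG00000060183) had 3, 1 and 5 reads in mtDNA libraries and 2, 0 and 0 in blank libraries, a ratio of 4.54 with a 95% counting interval of 0.940 to 43.2 (exact, counting error only). The groups of Cxcl11 overlapped, and at this depth no difference could be detected. C57BL/6 mice are known to carry a frameshift in Cxcl11, and the annotation used for names lists it as a polymorphic pseudogene. In addition, 40.5% of its read-length windows are shared with Gm2673, on the opposite strand, so its count is uncertain.

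Cxcl16 (ENSMUSG00000018920, chromosome 11), the ligand of CXCR6, which also serves as a scavenger receptor for oxidised lipids, was abundant in both groups. It had 141, 127 and 128 CPM in mtDNA 1, 2 and 3, against 117, 118 and 122 CPM in blank 1, 2 and 3. The groups did not overlap, but the distance between them was small, with a log2 fold change of 0.15 ± 0.062 (edgeR adjusted p = 0.106). The log2 fold change was 0.03 when libraries were scaled by their totals alone. Zmynd15, on the opposite strand, shares 18.2% of its read-length windows, and the strand setting of the counts is not given in the sources used here.

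Among the CCR2 ligands, Ccl2 (ENSMUSG00000035385), the main monocyte chemoattractant, had 190, 130 and 142 CPM in mtDNA 1, 2 and 3, against 43.1, 42.3 and 43.5 CPM in blank 1, 2 and 3. The blank libraries were nearly level, while mtDNA 1 stood well above mtDNA 2 and 3. The log2 fold change was 1.84 ± 0.11 (edgeR adjusted p = 1.47e-11), and 1.66 without mtDNA 1. Ccl7 (ENSMUSG00000035373), which also acts on monocytes, had 61, 57 and 59 reads in mtDNA libraries and 11, 9 and 12 in blank libraries. That is 13.4 ± 1.87 CPM in mtDNA and 2.42 ± 0.551 CPM in blank libraries (SD, n = 3 each), a log2 fold change of 2.47 ± 0.24 (edgeR adjusted p = 4.51e-08). Ccl12 (ENSMUSG00000035352), a further CCR2 ligand of the mouse, had 6, 4 and 2 reads in mtDNA libraries and 1, 2 and 1 in blank libraries. Its ratio of 3.03 had a 95% counting interval of 0.917 to 12.9 (exact), so that no difference could be detected at this depth.

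Ccl3, Ccl4 and Ccl5 attract both T cells and monocytes. Among these genes, all already well expressed in blank cells, the fold changes were smaller than those of Ccl2 and Ccl7, a difference that was not tested. Ccl4 (ENSMUSG00000018930) had 143, 108 and 117 CPM in mtDNA 1, 2 and 3, against 57.4, 58.9 and 61.8 CPM in blank 1, 2 and 3 (log2 fold change 1.04 ± 0.088, edgeR adjusted p = 6.15e-09). Ccl3 (ENSMUSG00000000982), which is often induced together with Ccl4, had 157, 133 and 122 CPM in mtDNA libraries, against 85.7, 88.6 and 90.7 CPM in blank libraries (log2 0.63 ± 0.078, edgeR adjusted p = 2.28e-06). Ccl5 (ENSMUSG00000035042), also made by T cells and NK cells, had 162, 119 and 129 CPM in mtDNA libraries, against 82.6, 90.8 and 76.2 CPM in blank libraries (log2 0.70 ± 0.092, edgeR adjusted p = 5.20e-06). For each of these 3 genes the groups were separated. The highest library was mtDNA 1, as it was for each of the other tested chemokine genes. Without mtDNA 1 the log2 fold changes were 0.92 for Ccl4, 0.53 for Ccl3 and 0.57 for Ccl5, and all 3 remained called.

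**Figure D3:**
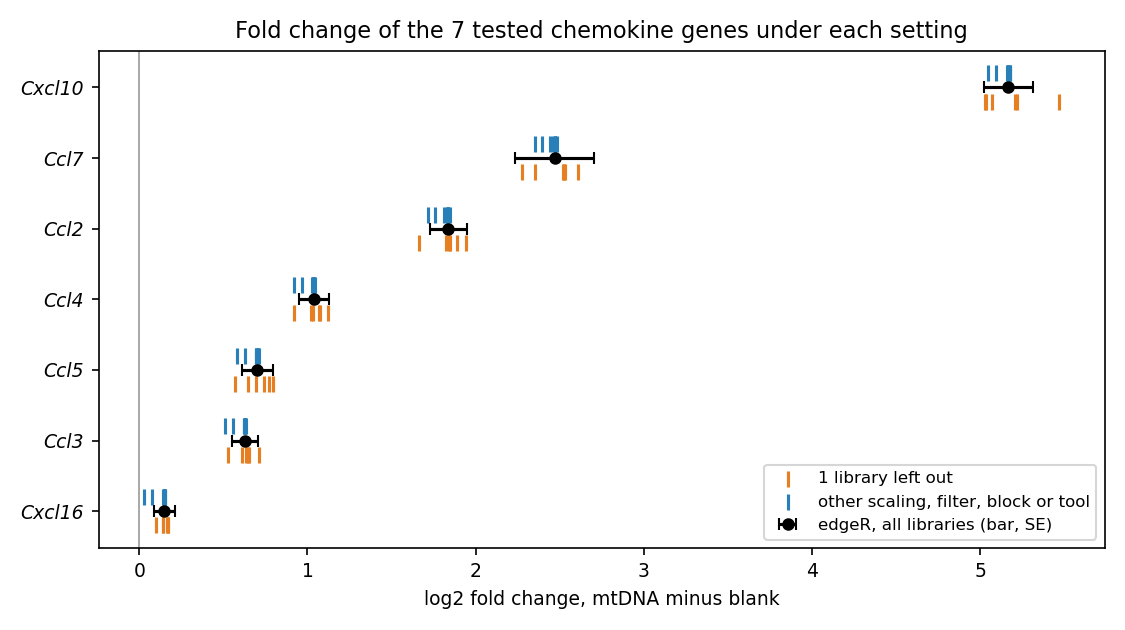
Log2 fold change (horizontal axis, mtDNA minus blank) of the 7 tested genes: black points and bars are the edgeR estimate and SE, orange marks the 6 omissions of a library, blue marks the 8 other settings. Every mark lies above 0, from 5.03 to 5.47 for Cxcl10 and from 0.03 to 0.17 for Cxcl16, and Cxcl16 was not called under any of them.

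Levels were then compared between genes per kilobase of the longest annotated transcript (CPM per kilobase). In mtDNA libraries Ccl5 (204 ± 33.6), Ccl4 (186 ± 27.4), Ccl3 (179 ± 23) and Ccl2 (141 ± 28.8) came first (SD, n = 3 each), and each overlapped its neighbour in this order over the libraries. Cxcl10 (63.0 ± 7.24) and Cxcl16 (48.9 ± 2.86) followed, separated from Ccl2 and from each other. Ccl7 stood at 16.8 ± 2.34 and Ccl12 at 1.75 ± 1.04, and Cxcl11 and Cxcl9 were below 0.3 in every library.

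In blank libraries the order was Ccl5 (125 ± 11), Ccl3 (115 ± 3.29), Ccl4 (90.0 ± 3.39), Cxcl16 (44.0 ± 0.924), Ccl2 (39.2 ± 0.547), Ccl7 (3.02 ± 0.688), Cxcl10 (1.76 ± 0.611) and Ccl12 (0.543 ± 0.176). The ranges of Ccl5 and Ccl3 overlapped, as did those of Ccl7 and Cxcl10. With this length Cxcl10 stood at place 5 in mtDNA and at place 7 in blank libraries, and Ccl2 at place 4 and place 5. These places depended on the length used. With the median transcript length, Cxcl10 had 115 in mtDNA and 3.20 in blank libraries and stood at place 5 in mtDNA and, above Ccl7, at place 6 in blank libraries. With the union of exons, Ccl5 had 142 in mtDNA and 86.7 in blank libraries and stood at place 3 in both groups.

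**Figure D4:**
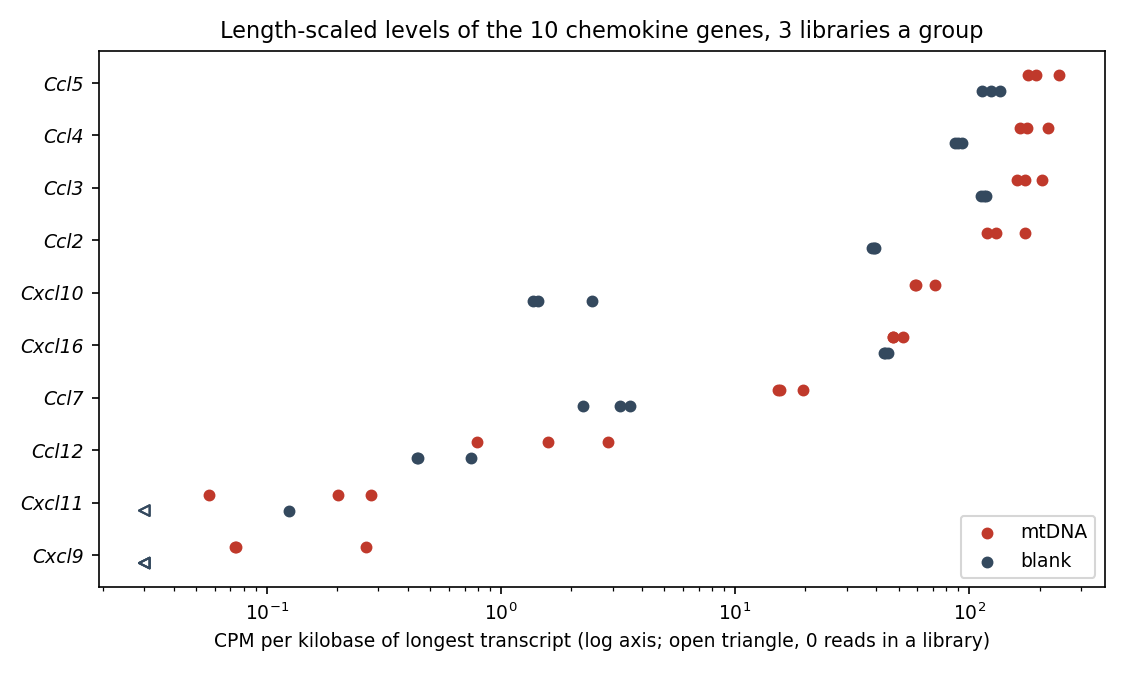
CPM per kilobase of the longest transcript (horizontal log axis) of the 10 genes in mtDNA (red) and blank (dark) libraries, ordered from high to low by the mtDNA mean; open triangles mark libraries with 0 reads and lie on top of each other. Cxcl10 lies between Ccl2 and Cxcl16 in mtDNA libraries and beside Ccl7 in blank libraries.

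Ratios between members within a library do not depend on the scaling between libraries, and 6 pairs were compared. The ratio of Ccl5 to Cxcl10 reads was 1.02, 0.899 and 0.990 in mtDNA 1, 2 and 3, against 26, 27.5 and 13.6 in blank 1, 2 and 3. That of Ccl2 to Cxcl10 was 1.19, 0.989 and 1.09, against 13.6, 12.8 and 7.77. Reads of these genes, not scaled by length, were thus nearly level in mtDNA cells, whereas Cxcl10 was far behind in blank cells. Per kilobase of the longest transcript, Cxcl10 (63.0) stayed below Ccl5 (204) and Ccl2 (141) in mtDNA libraries.

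The ratio of Ccl3 to Ccl4 was 1.09, 1.23 and 1.05 in mtDNA libraries, against 1.49, 1.5 and 1.47 in blank libraries, a difference of -0.41 on the log2 scale. Ccl7 to Ccl2 was 0.0826, 0.0943 and 0.0885 in mtDNA libraries, against 0.0627, 0.0449 and 0.0685 in blank libraries, a difference of 0.61. For these 4 pairs the groups did not overlap. Each of the 4 had an exact two-sided permutation p of 0.1, the smallest that 3 against 3 libraries can give (0.12 adjusted over the 6 pairs), so that none could pass 0.05. Ccl12 to Ccl2 overlapped between groups (exact permutation p = 0.3, adjusted 0.3). For Cxcl10 to Cxcl9 no ratio is read, since Cxcl9 had 0 reads in each blank library.

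The genes whose pattern was nearest to that of Cxcl10 were Ifi208 (root mean square difference of 0.396 in log2 CPM relative to the blank mean, over 6 libraries), Iigp1 (0.397), Cmpk2 (0.536) and Ifit1 (0.539), all interferon-induced genes. Ifit1 averaged 337 ± 47.3 CPM in mtDNA and 10.8 ± 5.58 CPM in blank libraries (SD, n = 3 each). Nearest to Ccl5 were 4933430I17Rik (0.0742), Il1rn, which encodes the interleukin-1 receptor antagonist (0.0911), Ptpro, a receptor tyrosine phosphatase (0.0915), and Psme1, an activator subunit of the proteasome (0.105). Il1rn averaged 478 ± 45.3 CPM in mtDNA and 305 ± 11 CPM in blank libraries. This likeness rests mostly on the size of the difference between the groups, and for genes with few blank reads also on the prior count of 2 in the log2 values. Iigp1, at 11.6 ± 2.92 CPM in mtDNA and 0.0796 ± 0.138 CPM in blank libraries, passed the count filter through its mtDNA libraries. Ifi208 averaged 65.9 ± 11.9 CPM in mtDNA and 1.83 ± 0.797 CPM in blank libraries.

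Of the 28 other chemokine genes, 12 were tested, 3 were called higher and 1 lower, beside 11.9% and 5.98% of all genes tested. Their median log2 fold change was 0.04, against -0.01 for all genes tested. Ccl9, which attracts myeloid cells through CCR1, had log2 0.30 ± 0.056 (edgeR adjusted p = 0.000345), and Ccl22, a ligand of CCR4, 0.23 ± 0.050 (adjusted p = 0.00225). Ccl17, a further CCR4 ligand, had 0.38 ± 0.13 (edgeR adjusted p = 0.0448). That call was lost in 7 of 14 alternatives (adjusted p of 0.0591 to 0.222), among them the omission of mtDNA 2, mtDNA 3, blank 2 or blank 3. Under library totals the call of Ccl22 ended too (adjusted p = 0.0944). Cxcl3, a neutrophil attractant that acts through CXCR2, had log2 -0.50 ± 0.10 and was called lower (edgeR adjusted p = 0.00146). Ccl6, whose RNA is the most abundant of the chemokine genes by reads, had 1042 ± 56.1 CPM in mtDNA and 1030 ± 14 CPM in blank libraries (edgeR adjusted p = 0.856).

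A list of 9 genes held receptors of these chemokines and Ccrl2, whose binding of them was not tested. Of the 9 genes, 4 were tested, Ccrl2 among them. All 4 were called higher, beside 11.9% of all genes tested, and their log2 fold changes had a median of 0.34. Ccrl2, a receptor-like protein that does not signal in the usual way, averaged 31.7 ± 4.6 CPM in mtDNA and 15.5 ± 0.617 CPM in blank libraries (log2 1.02 ± 0.13, edgeR adjusted p = 3.07e-06). Ccr1 averaged 500 ± 19.5 CPM in mtDNA and 419 ± 6.04 CPM in blank libraries (log2 0.26 ± 0.049, edgeR adjusted p = 0.00057). Ccr2 had log2 0.16 ± 0.056 (edgeR adjusted p = 0.0493), with groups that overlapped. Its call ended in 7 of 14 alternatives (adjusted p of 0.106 to 0.606), among them the omission of mtDNA 2, mtDNA 3, blank 1 or blank 3. Cxcr3 had 9 reads in mtDNA and 14 in blank libraries, and Cxcr6 had 0 and 4, both below the filter.

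Enzymes and proteoglycans that trim, shed or hold chemokines were called higher in 2 of 11 tested genes and lower in 0. Among all genes tested, 11.9% were called higher and 5.98% lower. The list had a median log2 fold change of 0.09. Dpp4, the peptidase that cuts the first residues off CXCR3 ligands, had log2 0.62 ± 0.18 (edgeR adjusted p = 0.0183), and the metalloproteinase Mmp12 0.13 ± 0.043 (adjusted p = 0.0338). The call of Dpp4 ended in 4 of 14 alternatives (adjusted p of 0.0532 to 0.107), among them the omission of mtDNA 3, blank 1 or blank 2. That of Mmp12 ended in 7 (0.0747 to 0.814), among them the omission of mtDNA 1 or of any blank library. Adam10 and Adam17, which release Cxcl16 from the membrane, had log2 0.14 ± 0.057 and 0.13 ± 0.051 (edgeR adjusted p = 0.107 and 0.0839).

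The list for chemokine transcription ran from DNA sensing to interferon receptors and transcription factors. It also held Nfkbia, the gene of an NF-kB inhibitor, which was called higher (log2 0.22 ± 0.056, edgeR adjusted p = 0.00816). Of the 22 genes in this list, all tested, 16 were called higher and 0 lower. The shares to set beside these are 11.9% higher and 5.98% lower among all genes tested. Log2 fold changes in the list had a median of 0.29. Ifnb1, the interferon beta gene and 1 of the 16, had 13, 13 and 11 reads in mtDNA libraries and 0 in each blank library, and passed the filter through its mtDNA libraries. In all, 15 genes were called higher when at least 1 CPM was required in all 6 libraries. With upper-quartile factors 12 of the list were called higher, and 12 with library totals. Irf7, the interferon-induced regulatory factor, averaged 623 ± 93.6 CPM in mtDNA and 48.0 ± 24.6 CPM in blank libraries (log2 3.72 ± 0.18, edgeR adjusted p = 4.44e-13). Irf1, a regulatory factor induced by interferon gamma, averaged 212 ± 7.42 CPM in mtDNA and 79.3 ± 5.02 CPM in blank libraries (log2 1.42 ± 0.063, edgeR adjusted p = 1.07e-13). Rela, an NF-kB subunit, averaged 138 ± 7.91 CPM in mtDNA and 144 ± 8.91 CPM in blank libraries (log2 -0.06 ± 0.064, edgeR adjusted p = 0.548). The NF-kB subunit genes Nfkb1 and Rel were called higher (log2 0.19 ± 0.051 and 0.22 ± 0.065, edgeR adjusted p = 0.0121 and 0.0227). Nfkb2 and Relb were not called (edgeR adjusted p = 0.268 and 0.0957).

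Regulators of chemokine mRNA decay were called higher in 3 of 11 tested genes and lower in 1. The shares over all genes tested were 11.9% higher and 5.98% lower. These regulators had a median log2 fold change of 0.04. Zfp36, the protein tristetraprolin that destabilises cytokine mRNAs, had log2 0.34 ± 0.053 (edgeR adjusted p = 5.87e-05), and the RNA-binding nuclease gene N4bp1 0.30 ± 0.062 (adjusted p = 0.00117). Zc3h12c, of the regnase family, had 0.29 ± 0.077 (edgeR adjusted p = 0.012). That call was lost in 5 of 14 alternatives (adjusted p of 0.052 to 0.109), among them the omission of blank 2 or blank 3. Khsrp, a splicing and decay factor, had -0.19 ± 0.059 (edgeR adjusted p = 0.0254), and was no longer called in 4 (0.0616 to 0.121), among them the omission of mtDNA 3, blank 1 or blank 3.

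**Figure D5:**
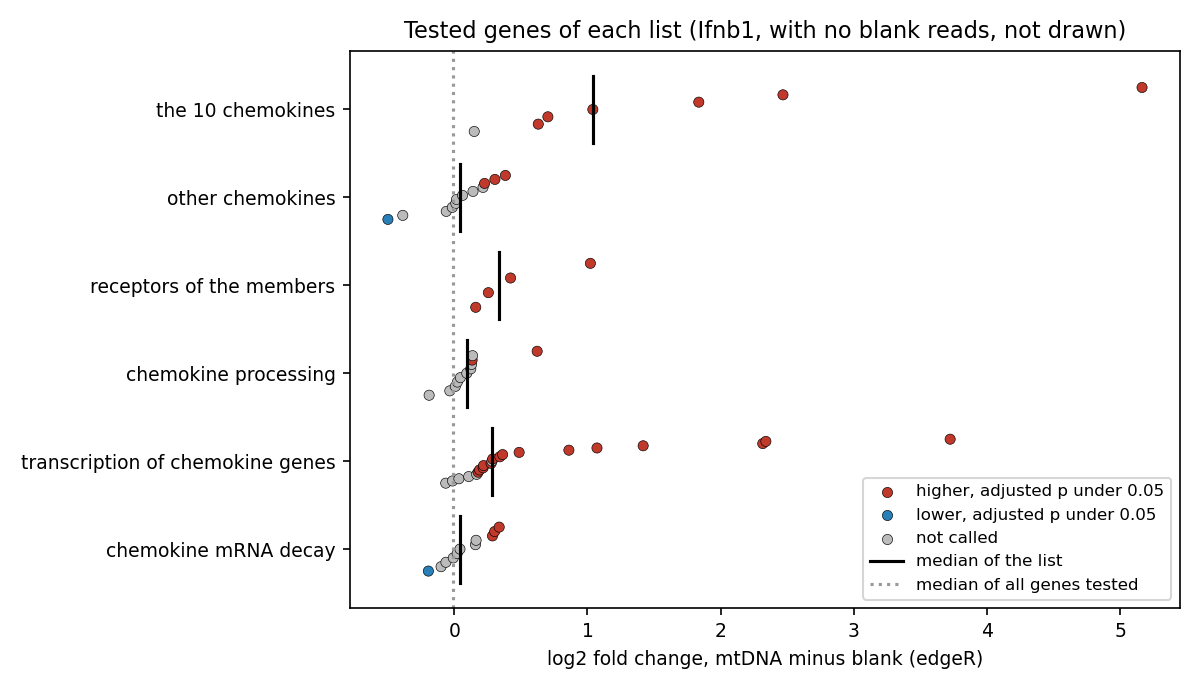
Log2 fold change (horizontal axis, mtDNA minus blank, edgeR) of each tested gene by list: red points were called higher, blue points lower and grey points were not called; black bars are list medians and the dotted line is the median of all genes tested (-0.01). Ifnb1, which had no read in blank libraries, is not drawn, and the 10 chemokines are shown by the 7 that were tested.

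Markers of other cells that make or receive these chemokines were read beside the results. For each marker list, the share to set beside its calls is 11.9% higher and 5.98% lower among all genes tested. Of 12 markers of monocytes and macrophages, 12 were tested, 6 were called higher and 0 lower, and their summed level was 3971 to 4212 CPM in mtDNA and 3055 to 3164 CPM in blank libraries. Fcgr1, Mertk and Ly6c2 moved most (log2 2.54 ± 0.10, 1.07 ± 0.090 and 0.85 ± 0.054, with edgeR adjusted p of 5.91e-09 or less), and none of the 12 was at 0. Their part in the rise of Ccl2, Ccl3, Ccl4 and Ccl7 was not tested.

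Of 12 markers of T and NK cells, a possible source of Ccl5, 1 was tested and 0 were called. Their summed level was 6.13 to 7.5 CPM in mtDNA and 5.18 to 10.4 CPM in blank libraries. No library had a read of Gzma or Ncr1. Summed over libraries, Cd3d had 23 reads in mtDNA and 20 in blank libraries, Cd3e 6 and 2, and Cd3g 5 and 11. Nkg7, the tested gene, averaged 2.75 ± 0.741 and 2.64 ± 0.679 CPM (edgeR adjusted p = 0.981). Among markers of basophils, mast cells and eosinophils, 1 of 8 tested was called higher, and the list summed to 219 to 235 CPM in mtDNA and 190 to 210 CPM in blank libraries. It was Mcpt8, a basophil protease (log2 0.27 ± 0.072, edgeR adjusted p = 0.0108), whose call ended in 4 of 14 alternatives (adjusted p of 0.0572 to 0.123), among them the omission of mtDNA 2.

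Of 12 neutrophil markers, 12 were tested and 1 was called higher, with summed levels of 8185 to 8818 CPM in mtDNA and 7838 to 8258 CPM in blank libraries. It was the granule gene Ngp (log2 0.17 ± 0.050, edgeR adjusted p = 0.0182), whose call ended in 5 alternatives (adjusted p of 0.0553 to 0.401), among them the omission of mtDNA 1, blank 1 or blank 3. Dendritic cell markers had 0 calls among 7 tested genes and sums of 844 to 848 CPM in mtDNA and 806 to 832 CPM in blank libraries. B cell markers had 0 calls among 5 tested genes and sums of 70.9 to 83.8 CPM in mtDNA and 67.1 to 81.9 CPM in blank libraries. Ccr7 had the smallest p among the dendritic cell markers (edgeR adjusted p = 0.0578, but 0.0461 with a replicate block and 0.043 in limma-voom) and Ms4a1 among the B cell markers (edgeR adjusted p = 0.38). Stromal and endothelial markers summed to 97.9 to 108 CPM in mtDNA and 48.5 to 60.5 CPM in blank libraries, with no read of Lum. Of the 3 tested, Kdr, a receptor of vascular endothelial growth factor, was called higher (log2 2.40 ± 0.12, edgeR adjusted p = 1.14e-12), while the endothelial marker Pecam1 averaged 37.1 ± 0.77 CPM in mtDNA and 36.4 ± 2.74 CPM in blank libraries. The part of these cells in the chemokine levels was not tested.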

How the data were processed

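Per the labels' protocols, poly(A) RNA of the 6 libraries was prepared with a directional kit and read from 1 end over 75 bases. The authors deposited raw gene counts, whole numbers with no scaling, whose headers refer to STAR's gene-level output. The submitters' processing notes list FastQC, STAR 2.7.10a, the build GRCm39 and DESeq2. Which annotation release and which strand setting were used is not given in the sources used here. All 6 columns matched a labelled sample. Symbols came from GENCODE M21 (build GRCm38), which named 52083 of 55359 IDs (Sting1 is listed as Tmem173) and served for transcript lengths, overlaps and read-length windows (75 bases, longest transcript, both strands). Promoters are RefSeq's (GRCm38.p6).

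Groups follow the treatment label. Genes were tested with edgeR 4.0.16, run in R 4.3.3 (quasi-likelihood test after filterByExpr and TMM scaling, two-sided, Benjamini-Hochberg over 11190 genes, threshold 0.05); SE derives from the fold change and F. Counting intervals cover counting error only. Library totals were 4018360 to 4911103 counts. No pair of libraries of a group looked like a repeat deposit (chi-square over its degrees of freedom was 1.54 to 2.28). Ratios used an offset of 0.5 count, with exact permutation tests over 20 assignments (scipy 1.17.1). The genes and lists were chosen with earlier results of these data known. All 10 chemokines were named whatever their result; each further list gave up to 3 higher and 2 lower genes with the smallest p, or its smallest-p gene as a value (2 genes that this rule picks are not reported here), and the nearest patterns came from tested genes with a mean of at least 1 CPM. Ccr2, Cxcr3, Cxcr6, Adam10, Adam17, Rela, Ccl6, Ly6g, S100a9, Csf1r, Cx3cr1, Ifnb1, Cd3e and Pecam1, and the genes next to the chemokines, were chosen after their values were seen. So were Cd3d, Cd3g, Nfkb1, Nfkb2, Rel, Relb and Nfkbia. Alternatives were other scaling factors and filters, DESeq2 1.42.0, limma-voom (limma 3.58.1), a replicate block and omission of each library. The edgeR test was also run on counts simulated from the means and dispersions of the main fit.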

Additional observations from a re-analysis of the deposited data

How the results depend on the processing

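The 6 calls among the chemokine genes held in each of the 14 alternative fits, and the log2 fold changes of all 7 tested genes stayed above 0. Scaling mattered most for the background: over all tested genes the median log2 fold change was -0.01 with TMM, -0.09 with upper-quartile factors and -0.13 with library totals. All tested genes called higher numbered 861 under library totals, and those called lower 1504 under upper-quartile factors, 2356 under library totals, 217 in DESeq2 and 410 to 522 with a library left out (410 without blank 3, 437 without mtDNA 1). Calls higher among other chemokines were 1 and calls lower 2 under library totals. Calls higher among processing genes were 1 under upper-quartile factors and library totals, 0 in DESeq2 and 0 to 2 with a library left out, and calls lower were 1 under upper-quartile factors and 2 under library totals. Calls lower among transcription genes were 1 under library totals, and calls lower among decay regulators were 2 under upper-quartile factors and library totals, 0 in DESeq2 and 0 to 1 with a library left out. Nkg7 (log2 0.02) turned to -0.059 under upper-quartile factors, -0.10 under library totals and ranged from -0.19 to 0.26 with a library left out, and Ms4a1 (0.41) from -0.087 to 0.62; neither was called. Of the 10 chemokines, 3 took another place in the order of levels with the union of exons in mtDNA and 3 in blank libraries, and 2 in blank libraries with the median transcript length. The cause of these changes was not tested, beyond the smaller number of libraries where 1 was left out. The labels give no shared replicate numbers. A replicate block of neighbouring title numbers (deviations correlated at 0.0404 to 0.0449) gave 1387 higher and 747 lower genes and the same 6 calls. Without the count filter Cxcl9, Cxcl11 and Ccl12 had edgeR adjusted p of 0.222, 0.325 and 0.358. Depth limits these 3 genes.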

Other observations

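Reads of all 38 chemokine genes, members and others together, numbered 14190, 14946 and 15354 in mtDNA 1, 2 and 3 and 11513, 13762 and 11327 in blank 1, 2 and 3. The 10 T cell and monocyte attracting genes made up 24.9% ± 1.62 of them in mtDNA and 14.7% ± 0.208 in blank libraries (SD, n = 3 each). Cxcl10 alone made up 4.18% ± 0.192 in mtDNA and 0.144% ± 0.0511 in blank libraries, and Ccl2 4.56% ± 0.607 and 1.58% ± 0.0385. Ccl6, which attracts myeloid cells, held the largest share of the reads of the genes given here in both groups, 31.0% ± 0.543 in mtDNA and 37.8% ± 0.906 in blank libraries. A share of reads favours long transcripts, and a rise of some genes lowers the share of the rest.

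Apart from Cxcl16, the 10 chemokine genes lie in clusters on chromosomes 5 and 11. Cxcl16 lies on chromosome 11 with no other chemokine gene within 3 places. The protein-coding genes within 3 places of a member on either side that are not members numbered 29. Of the 17 tested, 3 were called higher and 2 lower, beside 11.9% higher and 5.98% lower among all genes tested. Whether the place of these genes mattered was not tested. On chromosome 5, beside Cxcl9, Cxcl10 and Cxcl11, Scarb2, a lysosomal membrane protein gene, had log2 0.27 ± 0.061 (edgeR adjusted p = 0.00288) and Sdad1 -0.31 ± 0.087 (edgeR adjusted p = 0.0143). The flanking nucleoporin gene Nup54 had -0.03 ± 0.12 (edgeR adjusted p = 0.887). On chromosome 11, Ccl8, which lies next to Ccl12, had 37 reads in mtDNA and 49 in blank libraries (log2 -0.39 ± 0.30, edgeR adjusted p = 0.425), and Ccl11 and Ccl1 had no read in any library. Calls on chromosome 11 were Ccl9 and Heatr9 (log2 0.90 ± 0.30, edgeR adjusted p = 0.0449) higher. Pelp1, which lies near Cxcl16, was called lower (log2 -0.25 ± 0.084, edgeR adjusted p = 0.0402).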
